A study of Homo sapiens with 9 samples.

Results

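The expression of 6 oncofetal genes, IGF2BP1, IGF2BP2, IGF2BP3, HMGA1, HMGA2 and LIN28B, was examined in LNCaP:C4-2 cells, an enzalutamide-sensitive castrate-resistant prostate cancer cell line. The genes were found by symbol, through their Ensembl identifiers, among the 60675 genes counted in each RNA-seq library, and all 6 were detected in all 9 libraries and passed the filter on low counts. IGF2BP1, IGF2BP2 and HMGA2 were singled out because these same libraries show them moving in opposite directions with the 2 METTL3 hairpins, so their values below are a description and carry no test. LIN28B, IGF2BP3 and HMGA1 were included as relatives or partners of these genes, with earlier results of the data known.

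The study asked what loss of METTL3, the catalytic subunit of the complex that places N6-methyladenosine (m6A) on RNA, does to these cells. There were 3 groups of 3 libraries: cells with a non-targeting hairpin (shScramble), cells with shMETTL3 guide 2 and cells with shMETTL3 guide 1. In all 3 groups the hairpin was inducible and delivered by a lentivirus that HEK293T cells (a human embryonic kidney line) had packaged, and the cells were grown in charcoal-stripped serum with 1 µg/ml doxycycline for 6 days, although the sample titles name a vehicle. The labels do not say whether the 3 libraries of a group came from separate cultures, so the spread between them may be technical. Each hairpin is 1 transduced line, so that an effect of the hairpin and a difference between lines cannot be told apart.

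The targeted gene was checked first. Its counts were 922, 1010 and 753 with shScramble, 382, 415 and 349 with guide 2 and 837, 837 and 886 in the libraries labelled guide 1. METTL3 was lower with guide 2 than with shScramble (log2 fold change -0.95, SE 0.0687, adjusted p = 2.973e-12 by edgeR's quasi-likelihood test), and the groups did not overlap. In the libraries labelled guide 1 the difference from shScramble was -0.08 on the log2 scale (95% interval -0.21 to 0.04, adjusted p = 0.251 by edgeR), so these libraries go against their label and are named by it throughout. Total counts lay between 21899501 and 30897639 per library.

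The 3 IGF2BP proteins are cytoplasmic RNA-binding proteins that stabilise and localise messenger RNAs and that are also known as readers of m6A. HMGA1 and HMGA2 are small architectural chromatin proteins that bind AT-rich DNA, and LIN28B binds the precursors of the let-7 microRNAs and blocks their maturation. Most of these genes are abundant in the embryo, largely silent in adult tissue and switched on again in many tumours, and mature let-7 represses several of them, which makes LIN28B, let-7 and the IGF2BP and HMGA genes a well-known developmental circuit.

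The mature let-7 microRNAs are shown here because of their seed, bases 2 to 8. Its complement is a sequence that the 6 genes share in their 3′ untranslated regions (3′ UTRs). RefSeq (GRCh38.p14) held 9 mature family members, let-7a to let-7g, let-7i and miR-98, and all 9 have the seed GAGGUAG, in capitals in these 3 examples.
let-7a-5p: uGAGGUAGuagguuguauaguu
let-7g-5p: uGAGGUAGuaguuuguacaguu
miR-98-5p: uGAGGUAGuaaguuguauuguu

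The complement of this seed, CTACCTC, was searched on the transcript strand of the 3′ UTR of each gene's canonical GENCODE transcript (release 44, GRCh38). It occurred 4 times in IGF2BP1, 4 times in HMGA2 and 4 times in LIN28B, and 1 time each in IGF2BP2, IGF2BP3 and HMGA1. At least 1 match was found in 9.9% of 18876 human 3′ UTRs. Shares with at least as many matches as the member were taken among 3′ UTRs within 20% of the same length, the member itself included. They were 0.533% of those like IGF2BP1 (4 of 751), 0.0904% of those like HMGA2 (2 of 2212) and 0.196% of those like LIN28B (3 of 1528). For those like IGF2BP2, IGF2BP3 and HMGA1 they were 12.8%, 12.3% and 8.39%. The match nearest the stop codon of each gene is printed 5′ to 3′ with the 14 bases before it and 1 base after it, and the capitals mark the 7 bases that pair with the seed.
IGF2BP1 (chr17:49051062-49051083, plus strand): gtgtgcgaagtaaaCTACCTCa
IGF2BP2 (chr3:185644220-185644241, minus strand): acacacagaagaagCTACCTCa
IGF2BP3 (chr7:23311795-23311816, minus strand): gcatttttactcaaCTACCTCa
HMGA1 (chr6:34245830-34245851, plus strand): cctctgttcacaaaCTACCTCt
HMGA2 (chr12:65963299-65963320, plus strand): ccaacgttcgatttCTACCTCa
LIN28B (chr6:105078813-105078834, plus strand): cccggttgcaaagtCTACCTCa

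In 5 of the 6 genes this match is followed by an A, the base that favours let-7 targeting, whereas in HMGA1 it is followed by a T. In HMGA2 and LIN28B the printed matches begin 21 and 44 bases into the 3′ UTR. Of the later matches, which are not printed, all in HMGA2 and some in IGF2BP1 and LIN28B are followed by a base other than A. The letters say where a seed could pair and not whether it does. Mature microRNAs were not measured in these libraries.

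IGF2BP1, the family member best known from embryo and tumour, is encoded on chromosome 17 (chr17:48997412-49055650, plus strand, GRCh38). It had 403, 449 and 372 counts with shScramble, 84, 54 and 58 with guide 2, and 3691, 3911 and 3909 in the libraries labelled guide 1. As CPM, counts scaled to library size with TMM factors, its level was 14.5 ± 1.66 with shScramble, 2.81 ± 0.760 with guide 2 and 134 ± 6.16 in the libraries labelled guide 1 (mean ± SD, n = 3). The 3 groups did not overlap, with guide 2 lowest and the libraries labelled guide 1 highest, with log2 fold changes of -2.36 (SE 0.128) and 3.22 (SE 0.0799) against shScramble.

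IGF2BP2 (chr3:185643739-185825056, minus strand), the paralogue that is also used in adult tissues, followed the same order from a lower level. It had 160, 143 and 131 counts with shScramble, 18, 37 and 15 with guide 2, and 1233, 1217 and 1323 in the libraries labelled guide 1. The corresponding levels were 5.14 ± 0.625, 0.978 ± 0.433 and 43.8 ± 0.483 CPM (SD, n = 3). The 3 groups were separate, with log2 fold changes of -2.35 (SE 0.184) for guide 2 and 3.10 (SE 0.100) for the libraries labelled guide 1.

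IGF2BP3 (chr7:23310209-23470467, minus strand), the third paralogue and a marker of several aggressive tumours, moved little beside the other two. Its counts were 1135, 1183 and 882 with shScramble, 836, 936 and 669 with guide 2, and 1561, 1556 and 1652 in the libraries labelled guide 1. With guide 2 the libraries overlapped those of shScramble (34.6 ± 3.76 against 37.5 ± 1.01 CPM, SD, n = 3), and the log2 fold change was -0.11 (95% interval -0.24 to 0.02, adjusted p = 0.139 by edgeR). The adjusted p was 0.00145 when libraries were scaled by total count alone (-0.26) and 0.0390 under a stricter filter, a minimum mean of 1 CPM (-0.16), both short of 1.5-fold. Its level in the libraries labelled guide 1 was 55.4 ± 0.610 CPM, above every shScramble library, with a log2 fold change of 0.56 (SE 0.0623, adjusted p = 5.843e-09 by edgeR). That is 1.48-fold, just under the 1.5-fold that a call required here. MALSU1, a mitochondrial ribosome factor read from the other strand, covers 17.9% of the IGF2BP3 exons, and how reads there were counted is not stated. MALSU1 was not called in any comparison.

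Since 2 paralogues changed and the most abundant changed less, the make-up of the family differed between the groups. Per kilobase of exon, IGF2BP3 made up 62.3% ± 1.84 of the summed IGF2BP level with shScramble, 88.8% ± 0.453 with guide 2 and 21.4% ± 0.304 in the libraries labelled guide 1 (SD, n = 3). IGF2BP1 accounted for 22.4% ± 1.40, 6.77% ± 1.79 and 48.2% ± 1.02, and was therefore the leading paralogue only in the libraries labelled guide 1. IGF2BP2 accounted for 15.3% ± 1.27, 4.44% ± 1.63 and 30.4% ± 0.731. The summed level of the family was 7.08 ± 0.399 CPM per kilobase with shScramble, 4.58 ± 0.512 with guide 2 and 30.4 ± 0.768 in the libraries labelled guide 1. No test was made of these shares, because 2 of the 3 genes were chosen for the change.

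**Figure D1:**
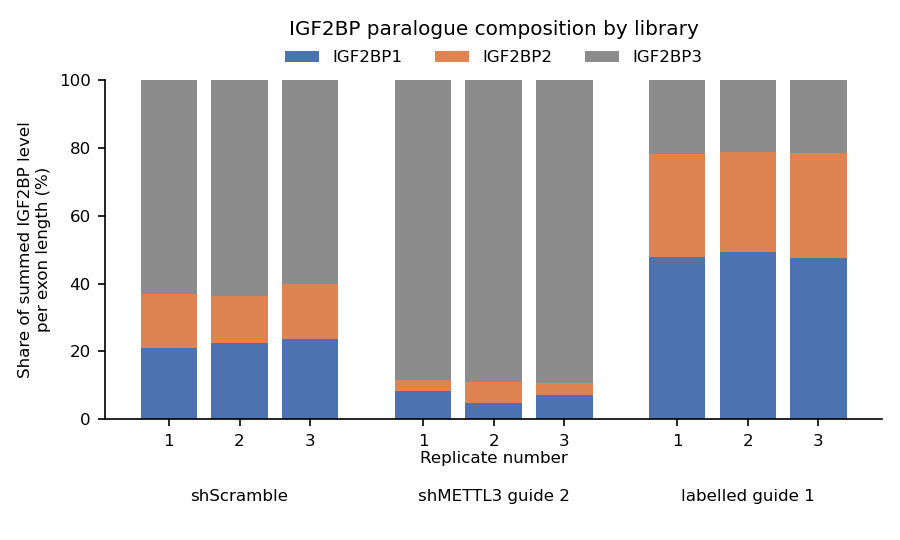
Make-up of the IGF2BP family in each library. Stacked bars give the share (%) of IGF2BP1, IGF2BP2 and IGF2BP3 in their summed level per exon length, with 3 libraries in each of the 3 groups. IGF2BP3 takes 60.2% to 63.6% with shScramble, 88.3% to 89.2% with guide 2 and 21.0% to 21.6% in the libraries labelled guide 1.

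HMGA2 (chr12:65824131-65966295, plus strand) showed the widest fold range of the 6 genes, from near the detection limit to a moderate level. It had 139, 139 and 96 counts with shScramble, 2, 4 and 11 counts with guide 2, and 656, 733 and 857 counts in the libraries labelled guide 1. The corresponding levels were 4.36 ± 0.146, 0.248 ± 0.220 and 26.0 ± 2.83 CPM (SD, n = 3). A count of 3 corresponds to 0.0971 to 0.137 CPM in these libraries, so the guide 2 level is known only roughly. On the summed counts, 17 with guide 2 against 374 with shScramble, HMGA2 was 18.0-fold lower with an exact 95% interval of 11.1 to 31.3-fold, which covers counting error only. The fitted log2 fold change of -4.15 (SE 0.276) became -5.08 without guide 2 replicate 3. HMGA2 was higher in the libraries labelled guide 1, at a log2 fold change of 2.58 (SE 0.119).

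HMGA1 (chr6:34236873-34246231, plus strand), the paralogue that is widely expressed in proliferating cells, behaved differently. It had 4404, 4108 and 2803 counts with shScramble, 5394, 6261 and 6278 with guide 2, and 6303, 6823 and 7808 in the libraries labelled guide 1. Its level rose from 131 ± 10.1 CPM with shScramble to 256 ± 26.0 with guide 2 and was 243 ± 20.1 in the libraries labelled guide 1 (SD, n = 3). Both groups lay above every shScramble library, with log2 fold changes of 0.96 (SE 0.0816, adjusted p = 4.643e-07 by edgeR) and 0.88 (SE 0.0813, adjusted p = 6.323e-07). Between the guides HMGA1 overlapped and differed by 0.08 on the log2 scale (95% interval -0.08 to 0.23, adjusted p = 0.401 by edgeR), a difference that took the opposite sign, -0.061, when libraries were scaled by total count alone. The 8 HMGA1 pseudogenes in the files held at most 1.82% as many counts as HMGA1 in any library. HMGA2 made up 0.499% of the summed HMGA level per exon length with shScramble, 0.0139% with guide 2 and 1.59% in the libraries labelled guide 1.

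LIN28B (chr6:104957048-105083332, plus strand) was not among the 3 genes that the choice rested on. It had 123, 96 and 78 counts with shScramble, 16, 16 and 14 with guide 2, and 768, 749 and 836 in the libraries labelled guide 1. The levels were 3.47 ± 0.485, 0.655 ± 0.0331 and 27.3 ± 0.578 CPM (SD, n = 3), and the 3 groups were separate. It fell with guide 2 (log2 fold change -2.40, SE 0.195, adjusted p = 3.011e-11 by edgeR) and was higher in the libraries labelled guide 1 (2.97, SE 0.103, adjusted p = 8.193e-20). LIN28A, the paralogue of embryonic stem cells, had 0 to 2 counts in every library.

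An exact two-sided permutation test over 3 against 3 libraries cannot give a p-value below 0.1, and it gave 0.1 for each difference of LIN28B and HMGA1 from shScramble and for IGF2BP3 in the libraries labelled guide 1. For IGF2BP3 with guide 2 it gave 0.3.

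Of the 6 genes, 4 were called lower with guide 2 (IGF2BP1, IGF2BP2, HMGA2 and LIN28B) and HMGA1 was called higher, where 20.4% of all 19278 tested genes were called lower and 8.85% higher. A call required 1.5-fold or more and an adjusted p-value below 0.05. The same 4 genes lay below shScramble in every guide 2 library and HMGA1 above it, where 34.1% and 32.5% of all tested genes did so. Of the 6, 5 were called higher and 0 lower in the libraries labelled guide 1, where 21.2% and 16.5% of all tested genes were, and all 6 lay above shScramble without overlap, as did 36.5% of all tested genes. Because 3 of the genes were chosen on these comparisons, nothing is read from these counts. Without the libraries labelled guide 1 in the fit, the log2 fold changes with guide 2 were -2.38 for IGF2BP1, -2.37 for IGF2BP2, -4.16 for HMGA2 and -2.41 for LIN28B.

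**Figure D2:**
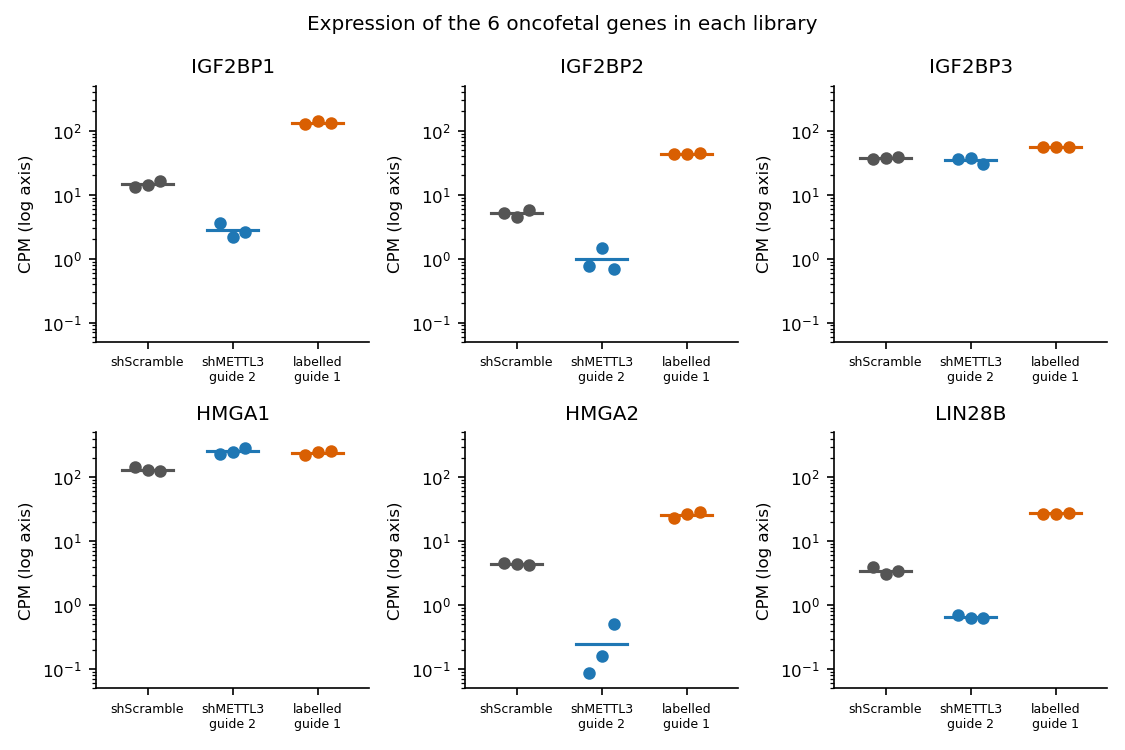
Expression of the 6 genes in each library. Points give CPM after TMM scaling on a log axis common to all panels, with 3 libraries a group, and lines give group means. IGF2BP1, IGF2BP2, HMGA2 and LIN28B lie lowest with guide 2 and highest in the libraries labelled guide 1, IGF2BP3 spans 30.3 to 56.0 CPM over all libraries, and HMGA1 is lowest with shScramble.

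The groups with the 2 hairpins were also compared directly. LIN28B was 41.4-fold lower with guide 2 than in the libraries labelled guide 1 (log2 fold change -5.37, SE 0.144, adjusted p = 1.198e-22 by edgeR), and IGF2BP3 was 1.60-fold lower (-0.67, SE 0.0636, adjusted p = 1.824e-10). The IGF2BP3 difference was -0.58 without guide 2 replicate 3, which is short of 1.5-fold. In this comparison 5 of the 6 genes were called lower, beside 28.2% of all tested genes, and the same 5 did not overlap, beside 40.4%. The descriptive values for the genes chosen on the contrast were -5.58 for IGF2BP1, -5.45 for IGF2BP2 and -6.72 for HMGA2. All 3 comparisons share groups, so they are not independent of each other.

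Per kilobase of exon, the order of the 6 genes with shScramble was HMGA1 (56.5 CPM per kilobase), IGF2BP3 (4.41), IGF2BP1 (1.59), IGF2BP2 (1.08), LIN28B (0.630) and HMGA2 (0.283), and no neighbours in that order overlapped. The order was the same with guide 2, where IGF2BP1 (0.308) and IGF2BP2 (0.207) overlapped. For the label guide 1, IGF2BP1 (14.7) and IGF2BP2 (9.25) stood above IGF2BP3 (6.50), and LIN28B (4.96) and HMGA2 (1.69) remained the lowest. HMGA1 was thus the most abundant and HMGA2 the least abundant of the 6 in each group.

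Other genes that act on let-7 were read from a list for LIN28 and let-7 processing. Of its 17 tested genes, 2 rose and 1 fell with guide 2, beside 8.85% and 20.4% of all tested genes, and 2 rose and 0 fell in the libraries labelled guide 1, beside 21.2% and 16.5%. The same background shares apply to every list that follows. The median log2 fold changes were 0.05 and 0.34, beside -0.04 and -0.02 over all tested genes. TRIM71, a let-7 target of stem cells that also represses messenger RNAs, had 0.600 ± 0.216 CPM with shScramble, 0.161 ± 0.175 with guide 2 and 5.59 ± 0.284 in the libraries labelled guide 1 (SD, n = 3). It was higher in the libraries labelled guide 1, and with guide 2 it passed the count filter only through them. With only the 6 compared libraries in the guide 2 fit, 1 of 16 tested genes rose and 0 fell. In the fit over all libraries, TRIM25, a cofactor of LIN28-dependent uridylation, rose by 0.64 and HNRNPA1, which binds let-7 precursors, by 0.59 on the log2 scale with guide 2. Both fell short of 1.5-fold when libraries were scaled by total count alone (0.49 and 0.44), and HNRNPA1 also with only the 6 compared libraries (0.58) or a minimum mean of 1 CPM (0.54). XPO5, the exporter of microRNA precursors, was called higher in the libraries labelled guide 1 (log2 fold change 0.67) and was not called with guide 2 (0.05). DICER1, DROSHA, DGCR8, TUT4 and TUT7, which cut or tail microRNA precursors, were not called in either.

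The transcripts that carry let-7 precursors gave 1 call of 5 tested genes in each comparison. MIRLET7BHG, the host of let-7b, fell by 1.07 on the log2 scale with guide 2, from 13.5 ± 1.11 to 6.43 ± 1.27 CPM (SD, n = 3), and had 9.22 ± 0.537 CPM in the libraries labelled guide 1. MIR99AHG, the host of let-7c, fell in the libraries labelled guide 1 by 0.81 on the log2 scale, from 46.6 ± 5.26 to 26.4 ± 2.37 CPM, and its log2 fold change with guide 2 was -0.20. A host transcript is not a measure of the mature microRNA.

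Among 28 tested let-7 targets other than the 6 genes, 9 fell and 3 rose with guide 2, whereas 13 rose and 2 fell in the libraries labelled guide 1. The median log2 fold changes were -0.20 and 0.42. The guide 2 counts were 8 lower and 3 higher of 27 with only the 6 compared libraries in the fit. CCND2, a D-type cyclin, went from 5.66 ± 0.305 CPM with shScramble to 0.358 ± 0.179 with guide 2 and was 45.3 ± 2.08 in the libraries labelled guide 1 (SD, n = 3). FIGN, a microtubule-severing enzyme, changed by -2.27 and 1.44, and IGF1R, the receptor of insulin-like growth factors, by -1.97 and 1.71 on the log2 scale. CDK6, a partner of the D-type cyclins, had a log2 fold change of 2.94 in the libraries labelled guide 1 and was not called with guide 2 (-0.21). MYC, which also stands in the list, rose by 0.92 on the log2 scale with guide 2.

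The number of seed matches differed within this list. Of the 9 tested targets with 2 or more matches in their 3′ UTR, 5 fell and 1 rose with guide 2, and 7 rose and 0 fell in the libraries labelled guide 1, with median log2 fold changes of -0.62 and 1.71. Of the 8 targets with 0 matches, 2 fell and 1 rose with guide 2, and 2 rose and 2 fell in the libraries labelled guide 1, with medians of -0.01 and 0.05. The 11 targets with 1 match lay between them, with medians of -0.19 and 0.31. TRIM71, tested with guide 2 only through the libraries labelled guide 1, is 1 of the 5. CCND2 and CDK6 were among the genes with 0 matches. Only the full 7 bases CTACCTC were searched, in 1 transcript per gene, so 0 matches means none of that sequence there. This grouping was made with the values in view and was not tested.

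Transcripts that IGF2BP proteins are known to bind were taken next. Of 16 tested, 3 rose with guide 2 (E2F1 by 1.33, MYC by 0.92 and ACTB by 0.68 on the log2 scale) and 3 were called lower, with a median of 0.06. The 3 called lower, CD44, MAPK4 and ABCB1, were at 0.380 to 0.464 CPM with shScramble and passed the count filter only through the libraries labelled guide 1. With only the 6 compared libraries in the fit, 3 of 13 tested rose and 0 fell, with a median of 0.28. For the label guide 1, 8 rose and 0 fell, with a median of 0.67. A minimum mean of 1 CPM removed CD44, MAPK4 and ABCB1. For the same label, 5 of 12 then rose and 0 fell, with a median of 0.36. LEF1, a transcription factor of the Wnt pathway, had a log2 fold change of 2.38, FSCN1, an actin-bundling protein, 1.72, and GLI1, a Hedgehog effector, 1.33, and these 3 were not called with guide 2 (-0.16, 0.09 and 0.03).

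Of 10 genes linked to HMGA proteins, 4 fell and 3 rose with guide 2, and 6 rose and 0 fell in the libraries labelled guide 1 (medians 0.12 and 1.28). With only the 6 compared libraries in the fit, where TWIST1 did not pass the count filter, 3 of 9 fell and 3 rose with guide 2. SNAI2, a transcription factor of epithelial-mesenchymal transition, had 3.39 ± 0.322 CPM with shScramble, 0.841 ± 0.351 with guide 2 and 26.3 ± 1.43 in the libraries labelled guide 1 (SD, n = 3). TWIST1, of the same programme, had 1, 1 and 0 counts with guide 2, so that it was at least 3.01-fold lower than with shScramble against a floor of 3 counts per library, and its log2 fold change was 4.12 in the libraries labelled guide 1. CDKN2A and CDKN2B, neighbouring inhibitors of cyclin-dependent kinases, changed by -1.33 and -1.58 with guide 2, and by 3.22 and 1.34 in the libraries labelled guide 1.

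In the IGF pathway, 4 of 15 tested genes rose and 5 fell with guide 2, and 6 rose and 2 fell in the libraries labelled guide 1 (medians -0.33 and 0.38). When only the 6 compared libraries were fitted, 3 of 12 rose and 4 fell with guide 2, and the median was 0.08. IGFBP6 and IGFBP7, which were called higher in the libraries labelled guide 1, passed the count filter only through those libraries. At a minimum mean of 1 CPM, 4 of 12 tested rose and 2 fell in the libraries labelled guide 1, with a median of 0.36. IGF2, the messenger RNA from which the IGF2BP family has its name, was low and was not called in either comparison (1.40 ± 0.200, 2.09 ± 0.182 and 1.84 ± 0.699 CPM with shScramble, guide 2 and the label guide 1, SD, n = 3). IRS2, an adaptor below IGF1R, changed by -1.46 and 0.99 on the log2 scale. IGFBP3, a binding protein that restrains IGF signalling, went the other way, by 1.42 and -0.88, as did IGF1, by 0.97 and -1.83. IGFBP4 changed by -1.18 and 3.04, and IGFBP5 was called higher in the libraries labelled guide 1 (2.45) and was not called with guide 2 (0.51).

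Other oncofetal genes were sparsely expressed, with 9 of 14 tested. With guide 2, 2 fell and 0 rose, and in the libraries labelled guide 1, 5 rose and 1 fell (medians 0.46 and 0.67). SALL4 and PEG10, which were called higher there, passed the count filter only through those libraries. At a minimum mean of 1 CPM, 3 of 6 tested rose and 1 fell in the libraries labelled guide 1, with a median of 0.58. Among 7 tested in the fit of only the 6 compared libraries, 2 fell and 0 rose with guide 2. PLAG1, a zinc finger factor that HMGA2 regulates, had 1.97 ± 0.316, 1.11 ± 0.315 and 12.5 ± 0.693 CPM with shScramble, guide 2 and the label guide 1 (SD, n = 3). TPBG, the 5T4 antigen, changed by -1.64 and 1.77 on the log2 scale. MEST, an imprinted gene, fell in the libraries labelled guide 1 by 0.95 on the log2 scale and was not called with guide 2 (0.46).

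Marker genes of cell types were summed in each library. Luminal prostate markers were present in every library, with 9 of them summing to 2644 to 2670 CPM with shScramble, 3005 to 3139 with guide 2 and 1367 to 1411 in the libraries labelled guide 1. Of 6 markers listed for HEK293T cells, which are embryonic kidney cells with neuronal features, the 5 reported here (PAX2, EYA1, NEFL, NEFM and INA) summed to 7.93 to 9.64, 0.678 to 1.08 and 135 to 147 CPM. These 5 were called higher in the libraries labelled guide 1 and lower with guide 2, with NEFM at 1, 0 and 3 counts there. VIM, an intermediate filament protein of mesenchymal cells, had 23.1 ± 0.711 CPM with shScramble, 3.56 ± 0.0475 with guide 2 and 153 ± 18.8 in the libraries labelled guide 1 (SD, n = 3), while the basal markers KRT5 and TP63 had 0 counts in every library. Neuroendocrine markers summed to 94.3 to 100 CPM in the libraries labelled guide 1 and to 15.1 to 18.0 CPM elsewhere. Singly, 4 of the 6 tested were called lower and 1 higher with guide 2 than with shScramble, beside 20.4% and 8.85% of all tested genes. Among these 6, CHGB had 0, 2 and 0 counts with guide 2 and INSM1 had 3, 2 and 0. CHGB, at 0.179 CPM with shScramble, passed the count filter only through the libraries labelled guide 1. The summed fibroblast markers, carried by COL1A1, were lowest in the libraries labelled guide 1.

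The shScramble level as a share of the level in the libraries labelled guide 1 was 10.8% for IGF2BP1, 11.7% for IGF2BP2, 12.7% for LIN28B and 16.7% for HMGA2. With guide 2 the shares were 2.10%, 2.23%, 2.40% and 0.954%. Among these 5 HEK293T markers the shares ran from 2.81% (NEFM) to 44.3% (PAX2) with shScramble and from 0.137% (NEFM) to 19.4% (PAX2) with guide 2. In bulk RNA fewer cells of a type and less RNA per cell cannot be told apart, and the part of these marker differences in the values of the 6 genes was not tested.

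**Figure D3:**
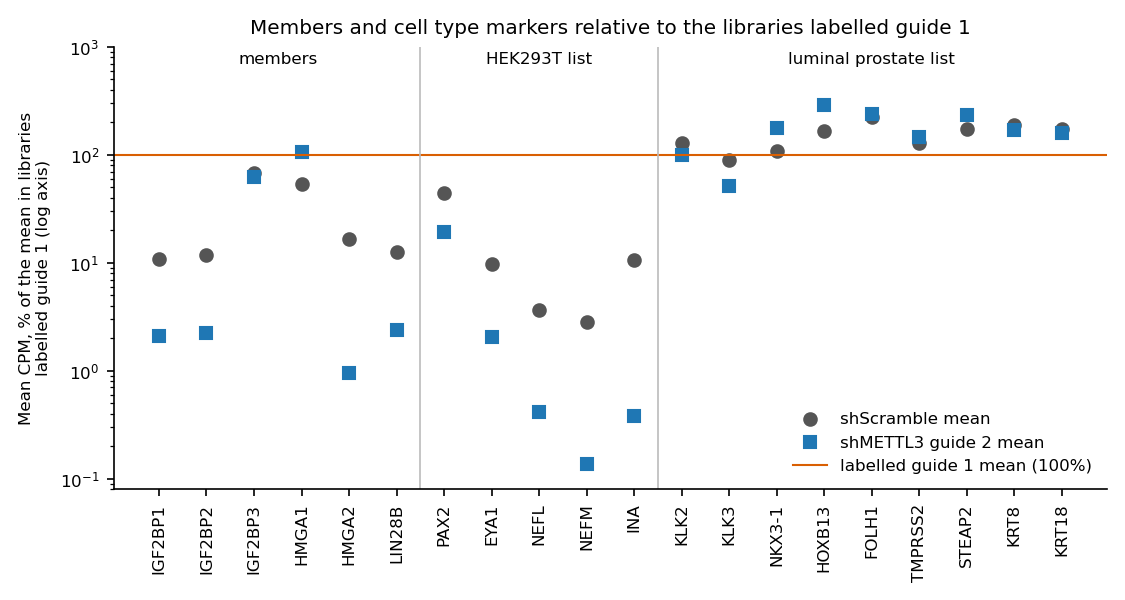
Mean level of the 6 genes and of marker genes with shScramble (circles) and guide 2 (squares) as a percentage of the mean in the libraries labelled guide 1 (line at 100%), on a log axis. IGF2BP1, IGF2BP2, HMGA2 and LIN28B lie at 10.8% to 16.7% with shScramble and at 0.954% to 2.40% with guide 2, the HEK293T markers spread more widely, and most luminal markers lie above the line.

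The genes beside the 6 were examined for changes shared along the chromosome. Next to LIN28B, BVES, a cell adhesion gene 13490 bases away, was also called in both comparisons (log2 fold changes -0.87 and 0.89), and HACE1, a ubiquitin ligase, in the libraries labelled guide 1 (0.97, against -0.21 with guide 2). MSRB3, a methionine sulfoxide reductase 335887 bases from HMGA2, changed by -0.74 and 0.94. These values were smaller than those of LIN28B and HMGA2. The nearest tested genes of IGF2BP2, SENP2 and TRA2B, were not called, nor was SNF8 beside IGF2BP1. GNGT2, on the other side of IGF2BP1, was at 0.623 CPM with shScramble and 0.280 in the libraries labelled guide 1. With guide 2 it was at 0.0850 CPM, below the floor of 3 counts, and it fell in both comparisons. GPNMB, a membrane glycoprotein beside IGF2BP3, also fell in both (-0.92 and -1.56), and TRA2A on the other side, LLPH beside HMGA2, and SMIM29 and GRM4 beside HMGA1 were not called against shScramble.

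The genes with the most similar profile were found by the root mean square difference of log2 CPM over the 9 libraries, each profile centred on its mean, among 15281 genes. For IGF2BP1 these were MPP1, a membrane scaffold (difference 0.13), SNPH, a neuronal syntaphilin (0.14), and ECEL1, a neuronal peptidase (0.14). For IGF2BP2 they were WWTR1, the Hippo pathway effector TAZ (0.16), FBXL21P (0.19) and GDF7 (0.20). For HMGA2 they were ZEB2, a transcription factor of epithelial-mesenchymal transition (0.35), CD109 (0.39) and ADD2 (0.41), and for LIN28B they were HOTAIR, a long noncoding RNA of the HOXC cluster (0.10), SLC44A5 (0.13) and HEY1, a Notch target (0.17). With guide 2 the means of ECEL1 (0.0144 CPM), FBXL21P (0.0410), SNPH (0.0440) and ZEB2 (0.0737) lay below the floor of 3 counts. Their similarity in that group therefore rests on floor values. SNPH, ECEL1 and FBXL21P reached a mean of 1 CPM only through the libraries labelled guide 1. Of the other members, LIN28B came nearest to IGF2BP2 (rank 19) and to IGF2BP1 (rank 36), while HMGA2 was at rank 599 of IGF2BP1. These ranks are close together, and with group means in place of libraries 1 of the 12 named genes kept its place.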

How the data were processed

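RNA-seq of 9 LNCaP:C4-2 libraries was analysed in 3 groups of 3, assigned from the sample labels. The authors trimmed the reads (Trim Galore, cutadapt), used STAR for alignment to GRCh38 and featureCounts for counting, and deposited the raw read count of each gene in each library, without normalization or pooling. Versions and the strand setting are not given in the sources used here. Of 60675 genes, 56558 (93.2%) were given a symbol from GENCODE release 44.

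Counts were scaled with TMM and filtered with filterByExpr at a minimum count of 10 and a minimum total of 15, leaving 19278 genes. All 9 libraries entered 1 model in edgeR 4.0.16 (R 4.3.3, limma 3.58.1), with a quasi-likelihood test, a coefficient for each group and no covariate. P-values were adjusted by Benjamini and Hochberg's method over all tested genes, and calls required an adjusted p-value below 0.05 with 1.5-fold or more. P-values measure the spread between these libraries only. The smallest total count was 21899501, and 3 counts were taken as the floor. The procedure was tested on simulated data.

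The members, gene lists and marker lists were chosen with earlier results of these data known. From each list the 3 called genes with the largest log2 fold change per comparison and a mean of at least 1 CPM are named, with the genes nearest each member in position and, for a span of at least 1 in log2 CPM, in profile. Others (MYC among let-7 targets, IGF2, the marker genes, genes with few counts, and genes not called) were named after their values were seen. Alternatives were DESeq2 1.42.0, its size factors, library size alone, other filters, only the 6 libraries compared, the adjusted p-value alone, the replicate number as a block and each library left out. Some marker genes and a marker list are not reported here, and the marker sums are over the genes reported.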

Additional observations from a re-analysis of the deposited data

Results flagged for a closer look

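The direct comparison of the guides differed for 5 of the 6 genes. By edgeR's test of that difference, the log2 fold change of guide 2 against the libraries labelled guide 1 was -5.37 for LIN28B (adjusted p = 1.198e-22), lower in 3 of 3 guide 2 libraries, and -0.67 for IGF2BP3 (adjusted p = 1.824e-10), lower in 3 of 3. For IGF2BP1 (-5.58), IGF2BP2 (-5.45) and HMGA2 (-6.72), every guide 2 library lay below and every library labelled guide 1 above shScramble. For those 3 differences no test is given, because the genes were chosen for them, and their calls among the counts of the 6 genes come from the fit over all genes and are not used as support.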

How the results depend on the processing

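The log2 fold changes of the 6 genes and METTL3 kept their direction under the alternatives run, except HMGA1 between the guides, which was -0.061 with library size alone. That scaling lowers every guide 2 value by 0.15 against shScramble, and it split the guide 2 calls into 1012 higher and 4865 lower, against 1706 and 3939. It also moved levels per kilobase by more than 1 SD for IGF2BP2 (9.50) and LIN28B (5.10) in the libraries labelled guide 1, IGF2BP3 with shScramble (4.57) and the label guide 1 (6.69), HMGA2 with shScramble (0.293) and LIN28B with guide 2 (0.111). IGF2BP3 between the guides lay between -0.73 and -0.58 with 1 library left out, and without guide 2 replicate 3 it missed 1.5-fold. HMGA2 with guide 2 lay between -5.08 and -3.76 against shScramble and between -7.65 and -6.33 against the label guide 1, the lowest value in each case without guide 2 replicate 3.

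With the adjusted p-value alone, 11910, 13188 and 14386 genes were called in the comparisons of guide 2 and the label guide 1 with shScramble and with each other, against 5645, 7265 and 9125. For guide 2 the lists then gave 11 calls for let-7 processing, 4 for let-7 hosts, 22 for let-7 targets, 5 for other oncofetal genes and 10 for IGF2BP-bound transcripts. For the label guide 1 they gave 13, 4 and 24 for the first 3 and 13 for IGF2BP-bound transcripts, and between the guides 15, 4 and 27 for the first 3. With only the 6 libraries compared, guide 2 gave 1 call for let-7 processing, where TRIM71 was not tested and HNRNPA1 fell short of 1.5-fold, and 3 for IGF2BP-bound transcripts, where 3 of the genes were not tested. Without a filter it gave 4 for other oncofetal genes. A minimum mean of 1 CPM, which tests fewer genes, left 3, 5 and 6 calls for IGF2BP-bound transcripts in the 3 comparisons, and 1 for let-7 hosts and 4 for other oncofetal genes between the guides. Leaving out 1 library gave 1 to 2 calls for let-7 hosts in the libraries labelled guide 1 (2 without shScramble replicate 3 or the label guide 1 replicate 2) and 1 to 3 between the guides (1 without replicate 3 of guide 2 or of the label guide 1). The cause of the remaining differences was not tested.

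Same-numbered libraries did not deviate together (correlations of deviations from group means -0.10 to 0.05), so the numbers do not pair them. With the replicate number as a block, 5494, 7140 and 9027 genes were called. The nearest profiles over the 3 group means shared 1 of 12 genes with those named. Depth limits the guide 2 values of HMGA2, IGF2BP2 and LIN28B, which rest on 2 to 37 counts per library.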

Other observations

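The seed match count was also set beside the fold changes of all tested genes other than the 6, using canonical 3′ UTRs. The let-7 targets listed above were not removed, so this is not a separate set of genes. TRIM71, NR6A1, HIC2 and FIGN from that list are among the genes with 3 or more matches. In the libraries labelled guide 1 the median log2 fold change was 0.05 over 12550 genes with 0 matches to CTACCTC, 0.14 over 1353 genes with 1, 0.19 over 153 genes with 2 and 0.30 over 32 genes with 3 or more. With guide 2 the medians ran the other way, at 0.05, -0.02, -0.05 and -0.30. Of the 32 genes with 3 or more matches, 12 were called lower and 0 higher with guide 2, and 13 were called higher and 1 lower in the libraries labelled guide 1. As shares, 37.5% were lower with guide 2 and 40.6% higher in the libraries labelled guide 1, beside 15.5% and 23.3% of the genes with 0 matches. Fitted without the libraries labelled guide 1, 10 of the 29 genes with 3 or more matches that passed the count filter were lower with guide 2 and 0 higher, with a median of -0.19, beside 14.1% lower of the genes with 0 matches. TRIM71, IGDCC3 and PTAFR passed the filter only through the libraries labelled guide 1, where they changed by 3.22, 2.61 and 0.89 on the log2 scale. They are counted in the shares for those libraries. The group with 0 matches also holds such genes, with 11874 left in the fit without those libraries. Both comparisons share the shScramble libraries.

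Genes with more matches have longer 3′ UTRs, with a median of 1168 bases at 0 matches and 7012 at 3 or more. Among 3′ UTRs of at least 2000 bases the medians at 0 and at 3 or more matches were 0.09 (3982 genes) and 0.29 (29 genes) in the libraries labelled guide 1, and 0.02 and -0.18 with guide 2. The shares called did not rise step by step: higher calls in the libraries labelled guide 1 were 25.6% at 0 matches, 26.5% at 1, 23.6% at 2 and 37.9% at 3 or more, and lower calls with guide 2 were 14.9%, 15.5%, 13.4% and 34.5%. The part of length or of other features of these genes in the differences was not tested, and mature let-7 was not measured.

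Several of the 32 genes, chosen here after their values were seen, changed in the same directions as IGF2BP1, IGF2BP2, HMGA2 and LIN28B. NYNRIN changed by -3.93 with guide 2 and 2.19 in the libraries labelled guide 1 on the fitted log2 scale. ZBTB8B changed by -3.33 and 2.62, and LIMD2 by -1.11 and 1.97. IGDCC3 changed by 2.61 in the libraries labelled guide 1, and with guide 2 it passed the count filter only through them. Others with as many matches hardly moved, such as ARIH1 (-0.04 and 0.24) and SLC35A3 (0.01 and 0.06).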
